A study of Mus musculus with 35 samples.

Results

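The 34 genes described here encode proteins of the lysosome, and 9 of them are cysteine cathepsins. They were taken by name, as the entries of the deposited expression table whose gene name is 1 of 34 given names. The names were given with earlier results of these data known. They are 34 of the 21203 genes of that table, and 34 of 34 were among the 17131 genes with enough counts to be tested. By role they comprise 9 cysteine cathepsins (Ctsb, Ctsc, Ctsf, Ctsh, Ctsk, Ctsl, Ctso, Ctss and Ctsz), 4 other peptidases (Ctsa, Ctsd, Lgmn and Tpp1), 7 glycosidases (Hexa, Gusb, Glb1, Gla, Gaa, Man2b1 and Neu1), 6 genes of lipid breakdown and lipid handling (Lipa, Asah1, Ppt1, Npc1, Npc2 and Psap), 6 membrane proteins (Lamp1, Lamp2, Scarb2, Cd63, Cd68 and Laptm5), the proton pump subunit Atp6v0d2 and the progranulin gene Grn.

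Lysosomes are acidic compartments in which hydrolases break down proteins, sugars and lipids that reach them from outside the cell or from its own worn parts. A proton pump in their membrane keeps the lumen acidic, membrane glycoproteins line and protect that membrane, and cathepsins are its main proteases. In brain every cell type has lysosomes, and microglia and macrophages, which take up debris, are known for a large lysosomal compartment.

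The study measured RNA by sequencing in mouse brain after a closed head injury, to follow the response to mesenchymal stromal cells (MSCs) carrying mRNA for interleukin-4 (IL-4). The mice were C57BL/6NCrl males, 8 to 9 weeks old at the start. Sham mice had no treatment. The other mice were injured and 5 days later received an injection into the left hippocampus of PBS, of MSCs or of MSCs into which synthetic mRNA for IL-4 had been transfected (IL-4 MSCs), the cells being primary cells of C57BL/6N mice bought as 1 lot. Tissue was taken 2 or 16 days after the injection, named 1 wpi and 3 wpi. The 7 groups were Sham (5 mice), PBS, MSC and IL-4 MSC at 1 wpi (5 mice each) and at 3 wpi (4, 5 and 5 mice).

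The 5 Sham mice came from both weeks (replicates 3 and 4 from week 1, replicates 1, 2 and 5 from week 3) and served as 1 group, so all comparisons with Sham share them. The series design calls them naïve, while the methods describe a sham procedure with every step but the impact. Replicate 5 of PBS at 3 wpi was excluded by the authors, with the label "Excluded due to high tpm", and was not analysed here. The library labels carry a number that is the same within each treated group and differs between them, so whatever it stands for cannot be told apart from the group. Libraries held 29838423 to 41554322 counts. A floor of 3 counts corresponded to 0.0722 to 0.101 CPM (the count over the library total), and 0 of 34 libraries had any of the 34 genes at or under it; floors of this kind cover counting error only.

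The labels name the tissue as left cortex of the brain, and the extraction protocol describes a 2-mm width of tissue around the injection site in the left hemisphere. Markers of cortex, striatum and hippocampus were all detected in each group. In TPM, the transcript share scale that corrects for transcript length, the 7 cortex markers summed to 550.4 to 651 in Sham (most abundant Mef2c), the 13 striatum markers to 326 to 1159.8 (Penk) and the 9 hippocampus markers to 218 to 274 (Neurod6). At 3 wpi the IL-4 MSC mice had 545 to 3217 TPM of striatum markers, with replicate 2 inside the Sham range and the other 4 above it, and 10 of those 13 genes were higher than in Sham. Their hippocampus markers summed to 156 to 296 TPM, with replicate 2 above the Sham range and the other 4 below it.

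Values per mouse are given below as CPM levels, with no TMM factor, in the order of replicates 1 to 5 (1 to 4 for PBS at 3 wpi). Differences between groups are log2 differences with their standard error (SE) from 1 edgeR fit of all 34 libraries, which also scales by TMM factors. A gene was called higher or lower at an adjusted p under 0.05, two-sided and adjusted over the 17131 genes.

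Several libraries differed from the rest of their groups. Sham replicate 5 was the highest of the 5 Sham mice in 21 of the 34 genes, MSC 3 wpi replicate 5 was the highest of its group in 22, and PBS 1 wpi replicate 2 and MSC 1 wpi replicate 3 were the highest of theirs in 26 each. Sham replicate 5 also had the highest level of its group in 9 of 9 leukocyte markers (summed level 133.7 TPM against 75.1 to 85.2 in the other Sham mice). It was the highest as well in 10 of 13 infiltrating macrophage markers, 4 of 6 endothelial markers, 8 of 12 microglia markers and 12 of 13 striatum markers. Striatum markers differed between Sham mice by week, however, with 333 and 326 TPM in replicates 3 and 4 of week 1 and 942, 1052 and 1159.8 TPM in replicates 1, 2 and 5 of week 3. MSC 3 wpi replicate 5 had 254.7 TPM of leukocyte markers, 52.8 TPM of infiltrating macrophage markers and 324 TPM of endothelial markers, the highest values of its group. Leukocyte markers summed to 342 TPM in PBS 1 wpi replicate 2 (219 to 254 in the other PBS mice) and to 377 TPM in MSC 1 wpi replicate 3 (255 to 287 in the other MSC mice), which also had 65.5 TPM of infiltrating macrophage markers (32.95 to 38.1 in the others). Cortex markers summed to 366 TPM in PBS 1 wpi replicate 2 and to 497 to 546 TPM in the other PBS 1 wpi mice. PBS 3 wpi replicate 3 was the highest of its 4 mice in 14 of the 34 genes, and its leukocyte markers summed to 215 TPM, against 102 to 139 TPM in the other 3. Counts of the 34 genes as a whole that were called are given with and without these libraries. Counts by role or promoter letters, of genes without overlap, of genes that rose by at least 1 and of genes in other lists are given with all libraries only.

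Levels of the 34 genes differed widely. On the TPM scale the highest means in Sham were those of Psap (1087 ± 42.5), Ctsd (263 ± 32.3), Lamp1 (259 ± 6.33), Gaa (214 ± 19.5) and Ctsb (178 ± 8.003), and the lowest that of Atp6v0d2 (0.106 ± 0.0124). In IL-4 MSC mice at 1 wpi the order differed, with Psap (1264 ± 16.02), Ctsd (546 ± 58.0), Ctss (465 ± 60.9), Ctsl (426 ± 53.9) and Lamp1 (338 ± 14.6) highest and Atp6v0d2 again lowest (4.96 ± 0.977). Together the 34 genes took 0.330 ± 0.0189% of all TPM in Sham (SD, n = 5; 0.313 to 0.360). Their share was 0.429 ± 0.0315% in PBS mice at 1 wpi, 0.440 ± 0.0226% in MSC mice and 0.568 ± 0.0290% in IL-4 MSC mice (0.524 to 0.594). At 3 wpi it was 0.351 ± 0.0218% (n = 4), 0.362 ± 0.0226% and 0.362 ± 0.0206%, so the 1 wpi IL-4 MSC mice lay above all others and the 3 wpi groups overlapped with Sham.

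Injured mice given PBS, compared with Sham at 1 wpi, show what followed injury and injection without cells. Of the 34 genes 23 were higher and 0 lower, against 8.73% of all genes tested that were higher and 5.03% that were lower. The 5 genes that rose by at least 1 on the log2 scale were Ctsc, Ctss, Ctsz, Cd68 and Grn. Of all 17131 genes 414 were called with a difference of at least 1, in either direction. The median log2 difference of the 34 genes was 0.33, beside -0.01 for all 17131 genes. In 20 of the 34 genes every PBS mouse stood above every Sham mouse, which 8.09% of all genes did. Without Sham replicate 5 the same 23 genes were called, and without PBS replicate 2 the number was 20. The 11 genes not called were Ctsf, Ctsk, Glb1, Gla, Gaa, Neu1, Ppt1, Npc1, Psap, Scarb2 and Atp6v0d2.

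MSC mice at 1 wpi, compared with Sham, had 24 of the 34 genes higher and 0 lower, against 11.0% and 6.89% of all genes. The 24 were the 23 genes of the PBS comparison and the beta-galactosidase gene Glb1. The median log2 difference over the 34 genes was 0.39, 7 genes rose by at least 1 (Ctsc, Ctsh, Ctss, Ctsz, Ctsd, Cd68 and Grn), and in 27 genes every MSC mouse stood above every Sham mouse, as 11.3% of all genes did. Over all 17131 genes 517 were called with a difference of at least 1, in either direction. Without MSC replicate 3 the count was 22. Compared directly, MSC and PBS mice at 1 wpi differed in 0 of the 34 genes by edgeR and 0 by DESeq2, with 1 gene at an unadjusted p under 0.05, and 0.123% of all genes were called in either direction. The count was 0 as well without PBS replicate 2 (4 unadjusted) or MSC replicate 3 (0 unadjusted). Cd68 averaged 16.9 ± 4.57 CPM in PBS mice and 18.0 ± 2.24 in MSC mice (SD, n = 5 each).

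IL-4 MSC mice at 1 wpi had the highest levels of most of the 34 genes. Against Sham 29 genes were higher and 0 lower, against 18.4% and 18.5% of all genes. The median log2 difference was 0.72, 15 genes rose by at least 1, and in 30 genes all 5 IL-4 MSC mice stood above all 5 Sham mice, as 20.6% of all genes did. Over all 17131 genes 1114 were called with a difference of at least 1, in either direction. The 5 genes not called were Ctsf, Gaa, Neu1, Ppt1 and Scarb2, whose log2 differences lay between -0.16 and 0.06; with library totals as the only scaling 31 genes were called. Without Sham replicate 5 the counts for MSC and IL-4 MSC mice were again 24 and 29.

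Compared with PBS at the same time, IL-4 MSC mice had 25 of the 34 genes higher and 2 lower, against 11.2% and 6.16% of all genes. The largest of these differences were in Atp6v0d2, Ctss, Ctsc, Cd68, Ctsk and Ctsl, each at least 1 on the log2 scale, and the median over the 34 genes was 0.33. Over all 17131 genes 491 were called with a difference of at least 1, in either direction. In 22 genes all 5 IL-4 MSC mice stood above all 5 PBS mice, as 11.5% of all genes did. The genes called lower were Ctsf (-0.10 ± 0.04, adjusted p = 0.0485) and Gaa (-0.22 ± 0.07, adjusted p = 0.0322), of which 1 was called with relative log expression size factors and 0 with library totals only. Without PBS replicate 2, the highest PBS mouse in several genes, 26 were higher and 0 lower. Not called were Ctso, Ctsd, Glb1, Neu1, Ppt1, Npc1 and Scarb2.

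Against MSCs without the IL-4 mRNA, IL-4 MSCs had 24 of the 34 genes higher and 1 lower, against 7.66% and 1.03% of all genes. Ctsc, Ctss, Cd68 and Atp6v0d2 differed by at least 1, the median was 0.28, and 23 genes had no overlap between the 5 and 5 mice, as 8.61% of all genes did. Over all 17131 genes 367 were called with a difference of at least 1, in either direction. The gene called lower was again Ctsf (-0.12 ± 0.04, adjusted p = 0.0328), and it was not called lower with relative log expression factors or with library totals only. Without MSC replicate 3, 25 genes were higher and 0 lower. Lipa, called against PBS, was not called against MSCs (0.22 ± 0.08, adjusted p = 0.0697). The comparisons of IL-4 MSC mice with Sham, PBS and MSC mice share the IL-4 MSC mice.

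**Figure D1:**
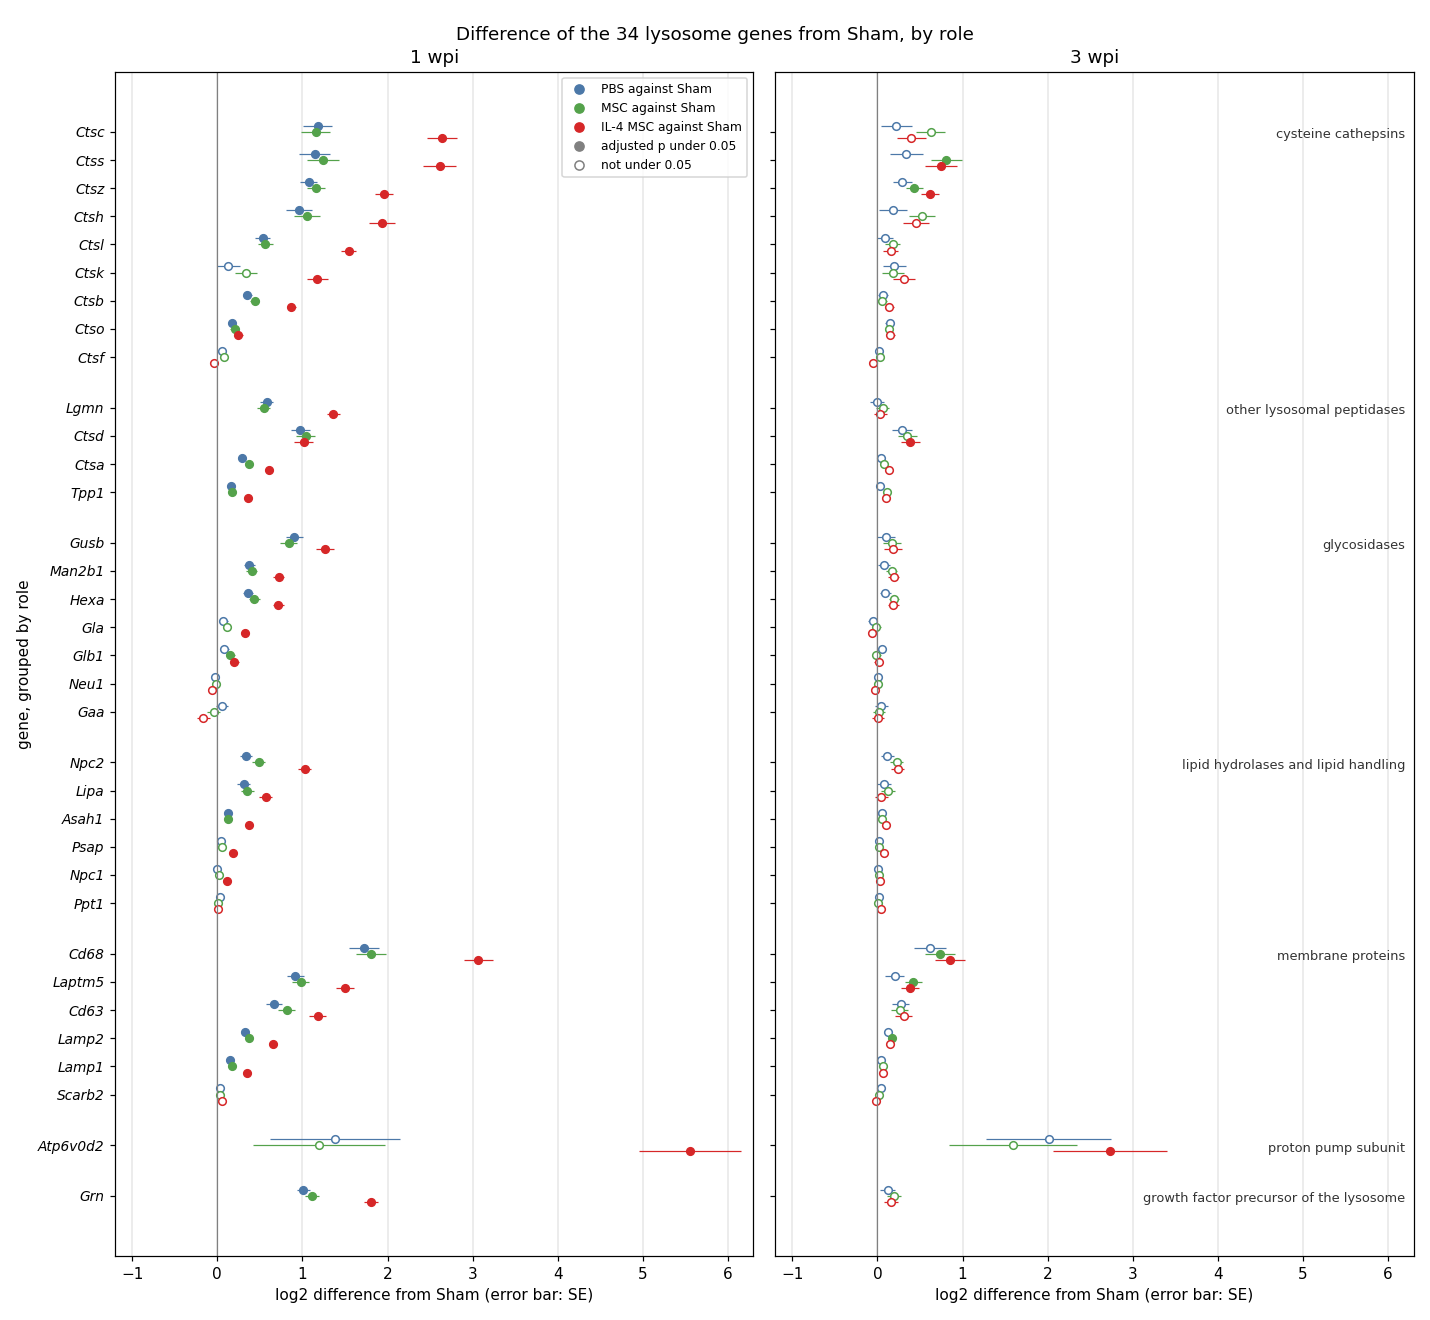
Log2 difference from Sham of each of the 34 genes, grouped by role, for PBS, MSC and IL-4 MSC mice at 1 wpi (left) and 3 wpi (right), with bars for the SE and filled points at an adjusted p under 0.05. At 1 wpi 23, 24 and 29 genes have filled points, and at 3 wpi 0, 5 and 6.

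Markers of immune cells moved in the same mice. The 9 leukocyte and myeloid markers were all higher than in Sham in PBS, MSC and IL-4 MSC mice at 1 wpi, and 7 of 9 were higher in IL-4 MSC mice than in PBS mice and than in MSC mice. Their summed level was 75.1 to 134 TPM in Sham (most abundant Tyrobp), 219 to 342 in PBS, 255 to 377 in MSC and 429.8 to 627 in IL-4 MSC mice (most abundant Lyz2). Of 13 markers of infiltrating myeloid cells and border macrophages, 5, 7 and 11 were higher than in Sham in PBS, MSC and IL-4 MSC mice, and 10 were higher in IL-4 MSC mice than in either other treatment. Their summed level was 16.2 to 25.3 TPM in Sham, 29.97 to 54.3 in PBS, 32.95 to 65.5 in MSC and 488 to 743 in IL-4 MSC mice.

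Of 12 microglia markers 10, 11 and 10 were higher than in Sham in PBS, MSC and IL-4 MSC mice at 1 wpi, with summed levels of 555 to 711, 599.5 to 680.0 and 602 to 724 TPM beside 334 to 439 in Sham. Between IL-4 MSC and PBS mice 3 microglia markers were higher and 1 lower (11.2% and 6.16% of all genes), and the summed levels overlapped. No marker of these 3 lists was undetected in a whole group. The part of these cells in the levels of the 34 genes was not tested, and in bulk tissue a change in the number of cells and a change in RNA per cell cannot be told apart.

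**Figure D2:**
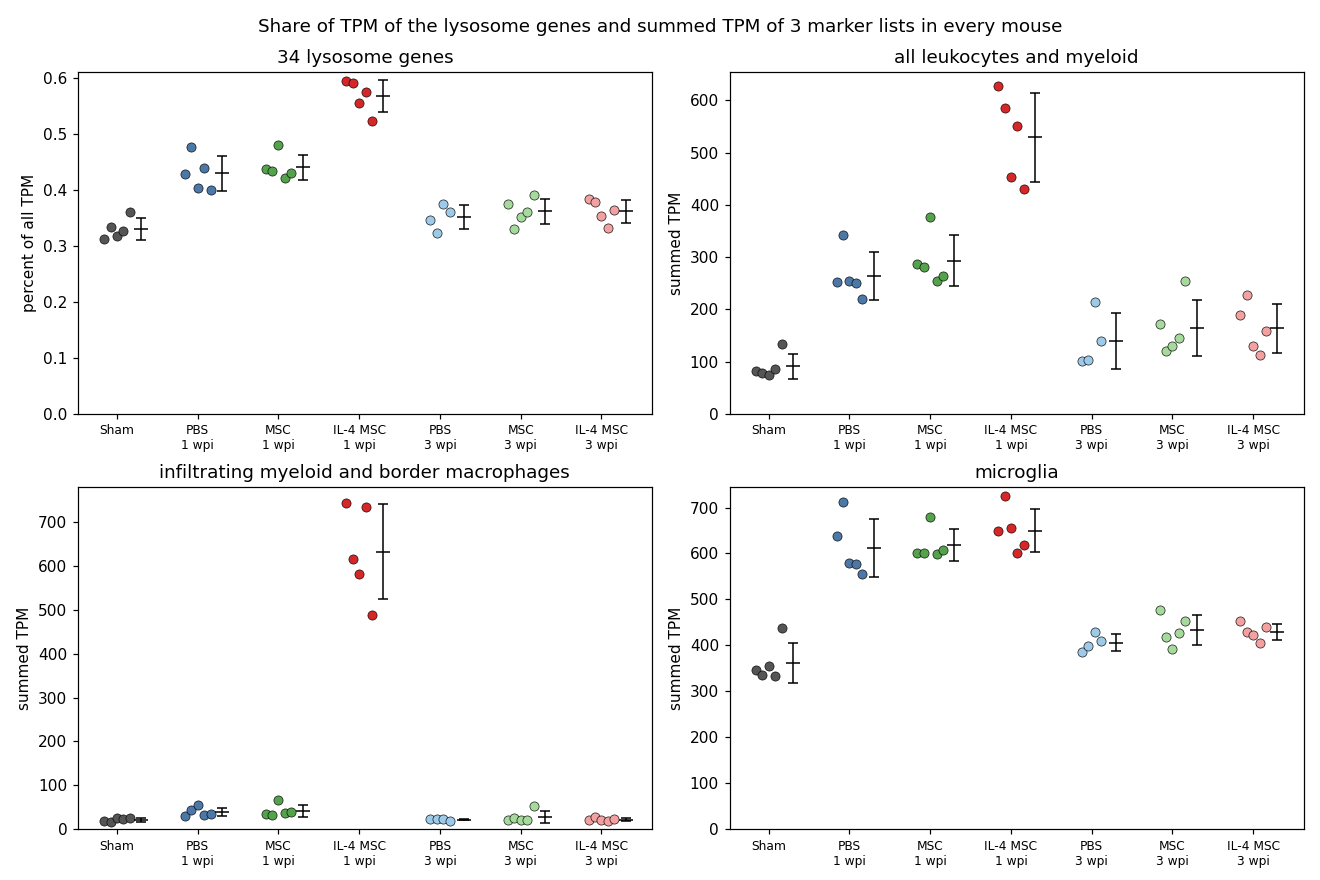
Share of all TPM taken by the 34 lysosome genes and summed TPM of the leukocyte, infiltrating macrophage and microglia markers, with 1 point per mouse and bars for mean ± SD. IL-4 MSC mice at 1 wpi lie above all other mice in the share of the 34 genes, while their microglia sums of 602 to 724 TPM overlap with those of PBS and MSC mice.

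Among the cysteine cathepsins 7, 7 and 8 of 9 rose against Sham in PBS, MSC and IL-4 MSC mice at 1 wpi. For this and each role below, 8.73%, 11.0% and 18.4% of all genes were higher in these 3 comparisons, a share that itself grew. Ctsc encodes cathepsin C, which activates the serine proteases of immune cell granules. Its level was 8.14, 8.68, 9.09, 8.55 and 12.9 CPM in Sham and 19.5, 26.1, 24.8, 18.4 and 20.9 CPM in PBS mice. MSC mice had 23.0, 20.2, 27.3, 21.1 and 17.3 CPM and IL-4 MSC mice 68.5, 68.3, 57.0, 60.2 and 56.1 CPM. The 4 groups formed 3 steps, with Sham lowest, PBS and MSC mice overlapping in the middle and all IL-4 MSC mice above them. The log2 difference of Ctsc from Sham was 1.18 ± 0.17 for PBS, 1.16 ± 0.17 for MSCs and 2.64 ± 0.17 for IL-4 MSCs, and IL-4 MSC mice differed from PBS by 1.46 ± 0.16 and from MSCs by 1.48 ± 0.16 (adjusted p at most 7.3e-06).

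Ctss encodes cathepsin S, a protease of antigen-presenting cells that stays active at neutral pH. It was measured at 35.8, 36.1, 35.9, 33.5 and 70.3 CPM in Sham and 102, 108, 80.4, 98.8 and 88.3 CPM in PBS mice. In MSC mice it reached 89.1, 99.9, 123, 94.9 and 109 CPM and in IL-4 MSC mice 297, 318, 247, 271 and 224 CPM. Sham replicate 5 came nearest the injured mice, yet no injured mouse at 1 wpi fell among the Sham mice, and the IL-4 MSC mice were above all others. Its mean in IL-4 MSC mice was 6.41-fold the Sham mean, and the log2 differences from Sham were 1.14 ± 0.18 (PBS), 1.24 ± 0.18 (MSC) and 2.61 ± 0.19 (IL-4 MSC). IL-4 MSC mice stood 1.47 ± 0.18 above PBS and 1.37 ± 0.18 above MSC mice on the log2 scale (adjusted p at most 3.7e-05 for all 5 differences).

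Ctsz encodes cathepsin Z, a carboxypeptidase. Sham mice had 23.3, 21.5, 19.4, 19.5 and 26.8 CPM and PBS mice 46.5, 60.7, 41.1, 47.9 and 41.5 CPM. The levels were 53.5, 47.5, 61.0, 45.4 and 47.5 CPM with MSCs and 94.2, 101, 92.1, 86.9 and 76.5 CPM with IL-4 MSCs. PBS replicate 2 and MSC replicate 3 were the highest of their groups, and both lay below the lowest IL-4 MSC mouse. From Sham, Ctsz differed by 1.07 ± 0.10, 1.16 ± 0.10 and 1.96 ± 0.10 with PBS, MSCs and IL-4 MSCs, and IL-4 MSC mice exceeded PBS by 0.89 ± 0.10 and MSC mice by 0.80 ± 0.10 (adjusted p at most 5.8e-07).

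Ctsh, the gene of cathepsin H, an aminopeptidase, gave 7.15, 7.75, 7.44, 6.71 and 11.9 CPM in Sham and 14.6, 20.1, 14.8, 16.2 and 15.4 CPM in PBS mice. With MSCs it gave 16.9, 16.1, 23.3, 15.6 and 15.7 CPM and with IL-4 MSCs 33.8, 36.8, 30.9, 31.9 and 30.3 CPM. Sham replicate 5 and MSC replicate 3 stood out within their groups, and the steps between groups had no overlap apart from that between PBS and MSC mice. The log2 differences from Sham were 0.96 ± 0.15, 1.06 ± 0.15 and 1.93 ± 0.15, and those of IL-4 MSCs from PBS and MSCs 0.98 ± 0.14 and 0.88 ± 0.14 (adjusted p at most 4.5e-05).

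Ctsl encodes cathepsin L, an endopeptidase of most cells. In Sham its level was 69.3, 69.1, 66.8, 63.5 and 74.4 CPM and in PBS mice 103, 118, 90.2, 105 and 93.1 CPM. MSC mice showed 108, 106, 117, 93.4 and 100 CPM and IL-4 MSC mice 219.7, 229, 219.7, 221 and 162 CPM. IL-4 MSC replicate 5 was far below the other 4 mice of its group and still above every PBS and MSC mouse. Ctsl rose by 0.53 ± 0.09 with PBS, 0.56 ± 0.09 with MSCs and 1.54 ± 0.09 with IL-4 MSCs relative to Sham, and by 1.01 ± 0.09 and 0.98 ± 0.09 with IL-4 MSCs relative to PBS and MSCs (adjusted p at most 4.7e-05).

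Ctsk encodes cathepsin K, the collagen-degrading protease of osteoclasts, and was the least abundant cysteine cathepsin on the TPM scale in Sham (3.40 ± 0.443). Its CPM level was 1.75, 2.397, 2.395, 2.12 and 2.29 in Sham and 2.66, 2.36, 2.72, 2.43 and 2.15 in PBS mice. It was 3.28, 3.03, 3.26, 2.51 and 2.19 in MSC mice and 5.46, 4.83, 4.28, 6.95 and 4.57 in IL-4 MSC mice. Sham, PBS and MSC mice overlapped, and the 5 IL-4 MSC mice stood above all of them. Ctsk did not pass the test with PBS (0.13 ± 0.13, adjusted p = 0.595) or MSCs (0.335 ± 0.13, adjusted p = 0.0713) against Sham, while with IL-4 MSCs it rose by 1.18 ± 0.13 against Sham, 1.05 ± 0.13 against PBS and 0.84 ± 0.12 against MSCs (adjusted p at most 9.0e-06).

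Ctsb, Ctso and Ctsf complete the cysteine cathepsins. Ctsb, the most abundant of the 9 on the TPM scale in Sham, went from 398 ± 14.9 CPM in Sham to 521 ± 48.7 with PBS, 559 ± 41.8 with MSCs and 765 ± 46.4 with IL-4 MSCs (mean ± SD, n = 5), and rose in each of the 3 groups. Ctso rose by less, from 24.7 ± 0.806 to 28.7 ± 2.39, 29.5 ± 1.32 and 30.9 ± 1.12 CPM, and its level with IL-4 MSCs did not pass the test against PBS (0.07 ± 0.05) or MSCs (0.04 ± 0.05). Ctsf was not called against Sham in any of the 3 groups, with 43.8 ± 2.14 CPM in Sham and 44.8 ± 1.58 CPM with IL-4 MSCs.

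All 4 other peptidases rose against Sham in PBS, MSC and IL-4 MSC mice at 1 wpi, and Ctsd differed from the rest in how they rose. Ctsd encodes cathepsin D, the main aspartic protease of lysosomes. It was found at 236, 241, 225, 223 and 290.0 CPM in Sham and 481, 644, 417, 516 and 392 CPM in PBS mice. MSC mice held 512, 493, 587, 470.4 and 514 CPM and IL-4 MSC mice 565, 556, 468, 548 and 439.9 CPM. All 15 injured mice lay above the Sham mice, and the 3 injured groups overlapped, with PBS replicate 2 the highest of all. The log2 difference from Sham was 0.98 ± 0.11, 1.04 ± 0.11 and 1.01 ± 0.11 with PBS, MSCs and IL-4 MSCs (adjusted p at most 2.2e-07). Between IL-4 MSCs and PBS it was 0.04 ± 0.11 (adjusted p = 0.870) and between IL-4 MSCs and MSCs -0.02 ± 0.11 (adjusted p = 0.944).

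Lgmn encodes legumain, an asparaginyl endopeptidase that processes cathepsins. Sham mice measured 94.8, 99.3, 90.5, 97.0 and 119 CPM and PBS mice 139, 187, 147, 147 and 147 CPM. MSC mice measured 157, 148, 173, 144 and 132 CPM and IL-4 MSC mice 274, 289, 278, 257 and 249.5 CPM. PBS replicate 2 stood above the other 4 PBS mice, and the IL-4 MSC mice stood above every other mouse at 1 wpi. Lgmn rose by 0.58 ± 0.08, 0.55 ± 0.08 and 1.36 ± 0.08 from Sham with PBS, MSCs and IL-4 MSCs, and by 0.78 ± 0.08 and 0.81 ± 0.08 from PBS and MSCs with IL-4 MSCs (adjusted p at most 3.1e-06). Ctsa, a carboxypeptidase that protects beta-galactosidase and sialidase, went from 71.1 ± 3.94 CPM in Sham to 89.4 ± 6.04, 95.0 ± 5.10 and 114 ± 5.54. The tripeptidyl peptidase gene Tpp1 went from 59.0 ± 1.20 CPM to 67.6 ± 4.86, 68.8 ± 2.88 and 79.8 ± 3.56, and Ctsa and Tpp1 were both higher with IL-4 MSCs than with PBS or MSCs.

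Of the 7 glycosidases 3 rose with PBS, 4 with MSCs and 5 with IL-4 MSCs against Sham at 1 wpi (8.73%, 11.0% and 18.4% of all genes). Gusb encodes beta-glucuronidase, which cleaves glucuronic acid from glycosaminoglycans. Its levels were 11.99, 14.1, 11.5, 13.3 and 15.3 CPM in Sham and 22.9, 35.8, 22.9, 22.7 and 22.3 CPM in PBS mice. They were 25.3, 24.2, 27.9, 22.3 and 22.6 CPM in MSC mice and 36.5, 35.4, 32.5, 30.7 and 31.9 CPM in IL-4 MSC mice. PBS replicate 2 reached the range of the IL-4 MSC mice, and the other 4 PBS mice lay below it. Gusb differed from Sham by 0.90 ± 0.10, 0.84 ± 0.10 and 1.26 ± 0.10, and IL-4 MSC mice differed from PBS by 0.36 ± 0.10 and from MSC mice by 0.42 ± 0.10 (adjusted p at most 0.00880).

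Man2b1, a mannosidase gene, and Hexa, a gene of ganglioside breakdown, rose in all 3 groups, Man2b1 from 44.3 ± 5.94 CPM in Sham to 76.6 ± 5.41 with IL-4 MSCs and Hexa from 38.7 ± 3.69 to 66.8 ± 5.56. Gla, the alpha-galactosidase A gene, rose with IL-4 MSCs, from 13.2 ± 0.497 to 17.3 ± 0.714 CPM (0.32 ± 0.05), and did not pass the test with PBS or MSCs. Glb1 rose with MSCs (0.15 ± 0.05) and IL-4 MSCs (0.20 ± 0.05). Neu1, a sialidase gene, and Gaa, the gene of the glycogen-degrading acid alpha-glucosidase, were not called in any comparison with Sham, at 35.7 ± 0.847 and 35.8 ± 1.31 CPM for Neu1 and 326 ± 28.4 and 306 ± 19.7 CPM for Gaa in Sham and IL-4 MSC mice.

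Of the 6 lipid genes 3 rose with PBS, 3 with MSCs and 5 with IL-4 MSCs against Sham at 1 wpi. Npc2 encodes a soluble cholesterol carrier that hands cholesterol to the membrane protein Npc1. It stood at 39.9, 39.9, 37.5, 39.7 and 44.0 CPM in Sham and 53.9, 59.2, 40.2, 56.2 and 50.1 CPM in PBS mice. MSC mice stood at 58.8, 57.9, 58.9, 58.0 and 57.1 CPM and IL-4 MSC mice at 84.7, 95.8, 84.8, 86.0 and 78.7 CPM. PBS replicate 3 lay within the Sham range, the MSC mice lay close together above Sham, and the IL-4 MSC mice were highest without overlap. The log2 difference from Sham was 0.333 ± 0.07 with PBS, 0.49 ± 0.07 with MSCs and 1.03 ± 0.07 with IL-4 MSCs, and IL-4 MSC mice exceeded PBS by 0.69 ± 0.07 and MSCs by 0.54 ± 0.07 (adjusted p at most 0.00155).

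Lipa, the acid lipase that frees cholesterol and fatty acids, and Asah1, the acid ceramidase, rose in all 3 groups. Lipa went from 22.1 ± 1.37 CPM in Sham to 34.5 ± 3.98 with IL-4 MSCs. Asah1 went from 45.1 ± 2.60 to 61.5 ± 1.85 CPM. Psap, the precursor of the saposins that help enzymes reach membrane lipids, and Npc1 rose against Sham with IL-4 MSCs, by 0.18 ± 0.03 and 0.11 ± 0.04. Neither passed that test with PBS or MSCs, but between IL-4 MSC and PBS mice Npc1 was not called. Ppt1, a thioesterase that removes fatty acids from proteins, was not called in any of the 17 comparisons, with 83.7 ± 1.80 CPM in Sham and 88.4 ± 2.49 CPM in IL-4 MSC mice.

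Membrane proteins rose in 5 of 6 cases with PBS, with MSCs and with IL-4 MSCs against Sham at 1 wpi. Cd68 encodes a glycoprotein of macrophage lysosomes widely used as a marker of phagocytic cells. Sham mice expressed it at 4.68, 4.03, 4.32, 4.36 and 7.60 CPM and PBS mice at 15.2, 24.4, 15.5, 17.1 and 12.1 CPM. MSC mice expressed it at 18.6, 17.3, 21.6, 16.5 and 16.03 CPM and IL-4 MSC mice at 46.7, 47.3, 40.4, 47.5 and 37.8 CPM. Sham replicate 5 was the highest Sham mouse and PBS replicate 2 the highest PBS mouse, and the IL-4 MSC mice were far above both. The mean with IL-4 MSCs was 8.79-fold the Sham mean, against 3.38-fold with PBS and 3.60-fold with MSCs. In log2 terms Cd68 rose by 1.72 ± 0.17, 1.81 ± 0.17 and 3.07 ± 0.17 from Sham, and by 1.34 ± 0.16 and 1.26 ± 0.16 from PBS and MSCs with IL-4 MSCs (adjusted p at most 5.6e-07).

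Laptm5 encodes a lysosomal membrane protein of blood cells and their relatives. Its level was 27.2, 26.9, 26.4, 26.0 and 38.5 CPM in Sham, and PBS mice had 51.7, 63.3, 60.2, 56.1 and 49.5 CPM. MSC mice had 54.2, 56.0, 73.1, 52.8 and 58.8 CPM, and IL-4 MSC mice had 81.7, 96.5, 90.0, 81.3 and 80.8 CPM. MSC replicate 3 came close to the IL-4 MSC range, which overlapped with no other group at 1 wpi. Laptm5 differed from Sham by 0.92 ± 0.10, 0.98 ± 0.10 and 1.498 ± 0.10 with PBS, MSCs and IL-4 MSCs, and IL-4 MSC mice stood 0.58 ± 0.10 above PBS and 0.52 ± 0.10 above MSC mice (adjusted p at most 3.8e-04).

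Cd63 encodes a tetraspanin of late endosomes and lysosomes. The Sham levels were 33.5, 37.3, 34.5, 37.0 and 37.1 CPM and the PBS levels 53.2, 76.0, 49.8, 59.3 and 54.2 CPM. The MSC levels were 70.0, 65.0, 71.7, 60.1 and 59.3 CPM and the IL-4 MSC levels 87.6, 96.0, 90.9, 81.7 and 70.8 CPM. IL-4 MSC replicate 5 fell among the highest PBS and MSC mice, so those groups overlapped, and all 15 lay above Sham. Cd63 rose from Sham by 0.67 ± 0.10, 0.81 ± 0.10 and 1.18 ± 0.10, and IL-4 MSC mice exceeded PBS by 0.51 ± 0.09 and MSC mice by 0.36 ± 0.09 (adjusted p at most 0.00957).

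Lamp1 encodes the abundant glycoprotein that lines the lysosomal membrane. Sham mice had 259.7, 268, 255, 259 and 250.2 CPM of it and PBS mice 299, 321, 259.9, 300.1 and 289 CPM. MSC mice had 304, 296, 307, 299 and 298 CPM and IL-4 MSC mice 361, 363, 334, 354 and 325 CPM. PBS replicate 3 lay within the Sham range, and PBS replicate 2 nearly reached the lowest IL-4 MSC mouse. Lamp1 moved less than most, by 0.15 ± 0.04, 0.17 ± 0.04 and 0.35 ± 0.04 from Sham with PBS, MSCs and IL-4 MSCs, and by 0.21 ± 0.04 and 0.18 ± 0.04 with IL-4 MSCs from PBS and MSCs (adjusted p at most 0.0151). Without PBS replicate 2 the PBS difference was 0.12 (adjusted p = 0.0799) and no longer called, and it was not called with only the 2 groups in the fit (adjusted p = 0.0552) or with only the Sham mice of week 1 (0.127). Lamp2, which also serves chaperone-mediated autophagy, went from 69.6 ± 1.497 CPM in Sham to 89.8 ± 4.55, 93.4 ± 5.12 and 115 ± 4.45. Scarb2, the receptor that carries glucocerebrosidase to lysosomes, was not called in any of the 17 comparisons (186 ± 6.41 CPM in Sham, 203 ± 2.09 with IL-4 MSCs).

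Atp6v0d2 had the largest difference of the 34 genes and the lowest level. It encodes the d2 subunit of the membrane part of the proton pump, known from osteoclasts and macrophages. Sham mice had 0.136, 0.0979, 0.119, 0.128 and 0.129 CPM and PBS mice 0.133, 0.263, 0.578, 0.263 and 0.348 CPM. MSC mice had 0.263, 0.196, 0.487, 0.315 and 0.130 CPM, and IL-4 MSC mice had 7.19, 6.41, 4.67, 6.50 and 4.60 CPM. The Sham levels stand for 3.19 to 5.31 estimated counts, just above the floor. The IL-4 MSC mice were far above all others, and 1 PBS and 1 MSC mouse lay within the Sham range. The fitted log2 difference from Sham was 5.55 ± 0.60 with IL-4 MSCs, and from PBS and MSCs it was 4.17 ± 0.52 and 4.36 ± 0.53 (adjusted p at most 3.6e-07). With PBS and MSCs against Sham it was 1.38 ± 0.76 (adjusted p = 0.259) and 1.20 ± 0.78 (adjusted p = 0.331), which did not pass the test.

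Grn encodes progranulin, a secreted protein that lysosomes cleave into granulins. Its Sham levels were 42.8, 43.5, 43.4, 44.4 and 56.5 CPM, and those of PBS mice 90.5, 108, 99.2, 95.5 and 83.1 CPM. With MSCs the levels were 93.7, 99.1, 119.9, 95.9 and 105 CPM, and with IL-4 MSCs 179, 185, 165, 166 and 149 CPM. Sham, then PBS and MSC mice together, then IL-4 MSC mice again followed each other without overlap. The log2 differences were 1.01 ± 0.08, 1.11 ± 0.08 and 1.80 ± 0.08 from Sham, and 0.79 ± 0.08 and 0.69 ± 0.08 for IL-4 MSCs from PBS and MSCs (adjusted p at most 1.3e-07).

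**Figure D3:**
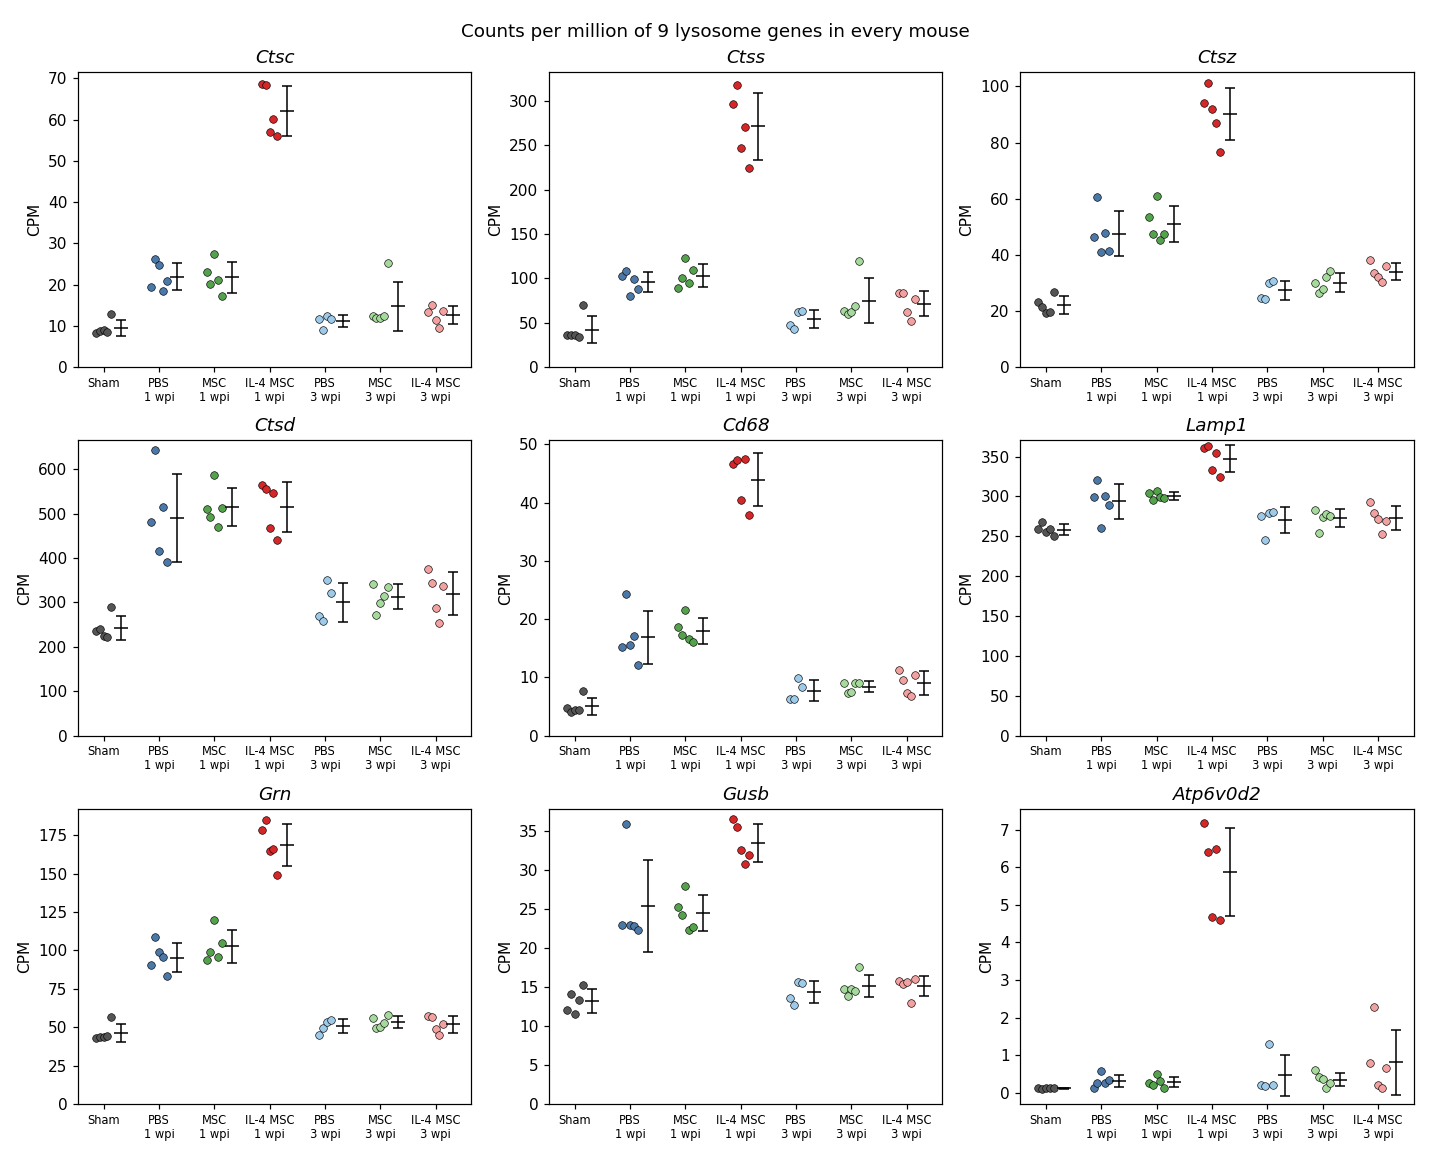
CPM of 9 of the genes in each of the 34 mice by group, with 1 point per mouse and bars for mean ± SD. IL-4 MSC mice at 1 wpi stand apart from PBS and MSC mice in Ctsc, Ctss, Ctsz, Cd68, Grn and Atp6v0d2, while in Ctsd the 3 injured groups at 1 wpi overlap.

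At 3 wpi most of the 34 genes were back near the Sham level. PBS mice differed from Sham in 0 of the 34 genes by edgeR and in 0 by DESeq2, with 7 at an unadjusted p under 0.05, where 0.0233% of all genes were higher. MSC mice had 5 genes higher (Ctss, Ctsz, Lamp2, Cd68 and Laptm5; 17 at an unadjusted p under 0.05) and 0 lower, against 1.11% of all genes that were higher. IL-4 MSC mice had 6 higher (Ctss, Ctsz, Ctsd, Cd68, Laptm5 and Atp6v0d2; 20 unadjusted) and 0 lower, against 2.76% of all genes that were higher. The median log2 difference of the 34 genes from Sham was 0.08, 0.15 and 0.15, beside 0.00 to 0.01 for all genes.

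The counts for MSC and IL-4 MSC mice at 3 wpi changed when single libraries were left out. Without Sham replicate 5 MSC mice had 8 genes higher than Sham, among them the 5 apart from Lamp2, and IL-4 MSC mice had 11, among them all 6. Without MSC replicate 5 MSC mice had 0 (14 unadjusted), and the count was also 0 without Sham replicate 1, 2, 3 or 4 and 2 without MSC replicate 1 or 4. For IL-4 MSC mice it was 3 without Sham replicate 1, 3 or 4 or IL-4 MSC replicate 5. With only the Sham mice of week 3 the counts were 0 and 1, and with only the compared groups in the fit 1 and 1, the MSC gene not being among the 5. With the striatum markers as a covariate the IL-4 MSC count was 2, and DESeq2 gave 10. PBS mice had 0 as well without Sham replicate 5 (13 unadjusted) or PBS replicate 3 (5 unadjusted).

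Treatments did not differ at 3 wpi in these genes at this threshold. IL-4 MSC and PBS mice differed in 0 of the 34 genes by edgeR and 0 by DESeq2 (2 unadjusted), where 2.94% of all genes were called in either direction. IL-4 MSC and MSC mice differed in 0 by both tools (2 unadjusted; 3.47% of all genes). MSC and PBS mice differed in 0 by both (4 unadjusted by edgeR; 0.0817% of all genes), and without MSC replicate 5 the last 2 comparisons also gave 0. Without PBS replicate 3 the comparisons of IL-4 MSC and MSC mice with PBS gave 0 each (6 unadjusted in both). The smallest adjusted p of the 34 genes for IL-4 MSCs against PBS was 0.103, in Ctsz.

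Ctss at 3 wpi was 47.9, 43.4, 61.9 and 63.6 CPM in PBS mice, 63.3, 60.3, 61.7, 69.3 and 119.5 in MSC mice and 83.2, 83.3, 62.2, 51.9 and 76.5 in IL-4 MSC mice. MSC replicate 5 was far above the rest, and all 3 groups overlapped with Sham through Sham replicate 5. The log2 difference from Sham was 0.34 ± 0.20 with PBS, 0.81 ± 0.18 with MSCs (adjusted p = 0.0188) and 0.75 ± 0.18 with IL-4 MSCs (adjusted p = 0.0183). The MSC call was lost without any 1 of Sham replicates 1 to 4 or MSC replicate 5 (0.58 to 0.76, adjusted p 0.0760 to 0.159). The IL-4 MSC call was lost without Sham replicate 1, 3 or 4 or IL-4 MSC replicate 5 (0.67 to 0.72, adjusted p 0.0518 to 0.0675), and with the striatum covariate (0.74, adjusted p = 0.0886). Both calls of Ctss were lost with only the compared groups in the fit (adjusted p = 0.291 with MSCs, 0.135 with IL-4 MSCs) and with only the Sham mice of week 3 (0.64 and 0.58, adjusted p = 0.213 and 0.191).

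Ctsz had 24.7, 24.2, 29.8 and 30.8 CPM with PBS, 30.04, 26.3, 27.8, 32.3 and 34.3 with MSCs and 38.0, 33.7, 32.1, 30.4 and 36.0 with IL-4 MSCs at 3 wpi. All 5 IL-4 MSC mice lay above all 5 Sham mice, and the other groups overlapped with Sham. It rose by 0.62 ± 0.10 with IL-4 MSCs (adjusted p = 0.00121), a call kept without any 1 mouse, and by 0.44 ± 0.10 with MSCs (adjusted p = 0.0300), a call lost without any 1 of Sham replicates 1 to 4 or MSC replicates 1, 4 or 5 (0.38 to 0.46, adjusted p 0.0518 to 0.152). The MSC call of Ctsz was also lost with only the compared groups in the fit (adjusted p = 0.0920) and with only the Sham mice of week 3 (0.31, adjusted p = 0.276). With PBS it was 0.29 ± 0.11 (adjusted p = 0.780).

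Cd68 had 6.23, 6.34, 9.96 and 8.32 CPM with PBS, 9.04, 7.27, 7.40, 9.05 and 9.11 with MSCs and 11.3, 9.45, 7.25, 6.71 and 10.48 with IL-4 MSCs. All of these mice were above 4 of the 5 Sham mice, and Sham replicate 5 lay among them. It rose by 0.85 ± 0.18 with IL-4 MSCs (adjusted p = 0.00569, kept without any 1 mouse) and by 0.73 ± 0.18 with MSCs (adjusted p = 0.0305), and with PBS the value was 0.62 ± 0.19 (adjusted p = 0.626). The MSC call was lost without any 1 of Sham replicates 1 to 4 or MSC replicates 1, 4 or 5 (0.66 to 0.72, adjusted p 0.0625 to 0.117), and in the fit with the replicate number as a block (adjusted p = 0.0539). The IL-4 MSC call of Cd68 was lost with the striatum covariate (0.73, adjusted p = 0.0824). Both calls were lost with only the compared groups in the fit (adjusted p = 0.103 with MSCs, 0.0881 with IL-4 MSCs) and with only the Sham mice of week 3 (0.60 and 0.72, adjusted p = 0.239 and 0.0857).

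Laptm5 gave 29.6, 32.2, 36.2 and 37.0 CPM with PBS, 38.1, 38.5, 33.96, 37.8 and 48.0 with MSCs and 42.9, 38.7, 36.6, 32.4 and 40.3 with IL-4 MSCs. Each of these groups overlapped with Sham through Sham replicate 5 and lay above the other 4 Sham mice. It rose by 0.42 ± 0.10 with MSCs (adjusted p = 0.0316) and 0.39 ± 0.10 with IL-4 MSCs (adjusted p = 0.0301). Both calls were lost without any 1 of Sham replicates 1 to 4, the MSC call also without MSC replicate 2 or 5 (0.34 to 0.43, adjusted p 0.0535 to 0.207), and the IL-4 MSC call without IL-4 MSC replicate 1 or 5 (0.34 to 0.36, adjusted p 0.0659 to 0.0977). The IL-4 MSC call of Laptm5 was also lost with the striatum covariate (0.34, adjusted p = 0.223). With only the compared groups in the fit both were lost (adjusted p = 0.229 with MSCs, 0.143 with IL-4 MSCs), as they were with only the Sham mice of week 3 (0.33 and 0.29, adjusted p = 0.266 and 0.257).

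Ctsd lay at 269, 258, 351 and 322 CPM with PBS, 342, 272, 299, 314 and 336 with MSCs and 376, 344, 289, 254 and 336 with IL-4 MSCs at 3 wpi, in groups that overlapped with each other and with Sham. It was called with IL-4 MSCs (0.39 ± 0.11, adjusted p = 0.0412), a call lost without any 1 of Sham replicates 1 to 4 or IL-4 MSC replicates 1, 2 or 5 (0.32 to 0.37, adjusted p 0.0547 to 0.119) and with the replicate block (adjusted p = 0.0582). This call of Ctsd was also lost with the striatum covariate (0.34, adjusted p = 0.257), with only the compared groups in the fit (0.38, adjusted p = 0.123) and with only the Sham mice of week 3 (0.31, adjusted p = 0.264). Atp6v0d2 was 0.199, 0.170, 1.29 and 0.205 CPM with PBS, 0.599, 0.408, 0.365, 0.135 and 0.248 with MSCs and 0.783, 2.28, 0.202, 0.115 and 0.654 with IL-4 MSCs. PBS replicate 3 and IL-4 MSC replicate 2 stood far above the other mice of their groups. With IL-4 MSCs Atp6v0d2 rose by 2.74 ± 0.67 from Sham (adjusted p = 0.0175), and without IL-4 MSC replicate 2 the value was 1.88 (adjusted p = 0.0566). With only the Sham mice of week 3 it was 2.74 (adjusted p = 0.107), and with only the compared groups in the fit Atp6v0d2 did not pass the count filter and had no call. Lamp2 rose with MSCs, from 69.6 ± 1.497 CPM in Sham to 79.5 ± 4.12 (0.18 ± 0.04, adjusted p = 0.0393), and with IL-4 MSCs its mean was 77.7 ± 4.07 (0.15 ± 0.04, adjusted p = 0.0536). The MSC call of Lamp2 was lost without any 1 of the 5 Sham mice or MSC replicates 1, 3, 4 or 5 (0.16 to 0.19, adjusted p 0.0554 to 0.212). It was also lost with only the compared groups in the fit (adjusted p = 0.0765) and with only the Sham mice of week 3 (0.16, adjusted p = 0.209).

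The other genes given in every mouse were not called at 3 wpi. Ctsc was 11.7, 8.98, 12.3 and 11.7 CPM with PBS, 12.3, 11.8, 11.9, 12.4 and 25.3 with MSCs and 13.2, 15.1, 11.4, 9.55 and 13.6 with IL-4 MSCs. Ctsh was 8.75, 7.89, 11.1 and 9.60 CPM with PBS, 10.6, 9.57, 9.96, 10.8 and 18.3 with MSCs and 11.9, 12.3, 10.2, 9.71 and 12.1 with IL-4 MSCs. In both genes MSC replicate 5 exceeded every other 3 wpi mouse, and the remaining mice overlapped with Sham. Ctsl was 72.9, 62.8, 78.8 and 80.5 CPM with PBS, 75.9, 69.5, 76.5, 74.3 and 96.3 with MSCs and 84.5, 81.0, 74.9, 66.1 and 79.4 with IL-4 MSCs. Ctsk was 2.84, 2.29, 2.70 and 2.33 CPM with PBS, 2.97, 2.27, 2.50, 2.71 and 2.15 with MSCs and 3.02, 2.61, 2.65, 2.39 and 3.09 with IL-4 MSCs. Both overlapped with Sham in all 3 groups, with MSC replicate 5 highest for Ctsl.

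Lgmn at 3 wpi was 106, 94.2, 102 and 102 CPM with PBS, 106, 96.7, 97.1, 103 and 126 with MSCs and 111, 107, 102, 91.5 and 105 with IL-4 MSCs. Gusb at 3 wpi was 13.6, 12.7, 15.6 and 15.5 CPM with PBS, 14.7, 13.9, 14.7, 14.5 and 17.5 with MSCs and 15.7, 15.4, 15.7, 12.9 and 15.98 with IL-4 MSCs. Npc2 at 3 wpi was 42.9, 38.9, 45.8 and 48.7 CPM with PBS, 48.9, 43.1, 45.1, 47.0 and 53.3 with MSCs and 54.7, 46.7, 45.4, 43.3 and 48.4 with IL-4 MSCs. All 3 genes overlapped with Sham in each group, and MSC replicate 5 was again the highest MSC mouse. Cd63 at 3 wpi was 44.0, 38.1, 47.5 and 46.1 CPM with PBS, 46.4, 39.9, 44.6, 44.2 and 42.2 with MSCs and 47.9, 53.0, 42.1, 33.8 and 47.5 with IL-4 MSCs. The PBS and MSC mice lay just above all Sham mice and 1 IL-4 MSC mouse lay within the Sham range, and the log2 differences of 0.27 ± 0.10, 0.26 ± 0.10 and 0.31 ± 0.10 from Sham did not pass the test. Lamp1 at 3 wpi was 275, 246, 279 and 281 CPM with PBS, 284, 254, 274, 278 and 275 with MSCs and 294, 279.5, 272, 253 and 269 with IL-4 MSCs. Grn at 3 wpi was 45.3, 49.3, 53.4 and 55.0 CPM with PBS, 56.4, 49.3, 49.98, 53.0 and 58.1 with MSCs and 57.4, 56.4, 48.6, 44.7 and 52.0 with IL-4 MSCs. Both overlapped with Sham, Grn through Sham replicate 5.

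From 1 to 3 wpi some of the genes fell in each treatment. IL-4 MSC mice at 3 wpi had 27 of the 34 genes lower than at 1 wpi, against 16.6% of all genes, with a median log2 difference of -0.53. PBS mice had 18 lower (4.90% of all genes; median -0.23; 15 without PBS 1 wpi replicate 2 and the same 18 without PBS 3 wpi replicate 3) and MSC mice 16 (4.93%; median -0.23; 19 without MSC 3 wpi replicate 5, among them the same 16, and 13 without MSC 1 wpi replicate 3). With IL-4 MSCs the log2 difference was -2.82 ± 0.46 for Atp6v0d2, -2.24 ± 0.17 for Ctsc, -2.22 ± 0.16 for Cd68, -1.87 ± 0.18 for Ctss and -1.64 ± 0.08 for Grn (adjusted p at most 1.4e-05). For Cd68 it was -1.11 ± 0.18 with PBS and -1.07 ± 0.17 with MSCs. Ctsd fell in each of the 3 treatments, with -0.69 ± 0.12, -0.69 ± 0.11 and -0.63 ± 0.11. Weeks were separate groups of mice, so these are differences between mice killed at different times.

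Whether the IL-4 MSC effect itself differed between weeks was tested as the difference from PBS at 1 wpi minus that at 3 wpi. This change was higher in 16 of the 34 genes and lower in 0, against 3.93% of all genes, with a median of 0.27; without PBS 3 wpi replicate 3 the count was 10, and without PBS 1 wpi replicate 2 it was 21. Atp6v0d2 changed by 3.45 ± 0.78, Ctsc by 1.29 ± 0.24, Cd68 by 1.11 ± 0.24 and Ctss by 1.06 ± 0.26 (adjusted p at most 0.0129), and Ctsl, Ctsk, Grn, Lgmn, Npc2, Ctsz, Cd63, Ctsb, Ctsa, Gla, Asah1 and Lamp2 by less. Without PBS 3 wpi replicate 3 the value for Atp6v0d2 was 2.07 (adjusted p = 0.230) and no longer called. For Ctsz it was 0.57 (adjusted p = 0.0204), and without PBS 3 wpi replicate 3 or 4 it was 0.52 and 0.51 (adjusted p = 0.0586 and 0.0620). Cd63 (0.47, adjusted p = 0.0429) kept its call in few of the fits without 1 mouse: it was lost without PBS 1 wpi replicate 1, 3, 4 or 5, IL-4 MSC 1 wpi replicate 1, 2 or 3, PBS 3 wpi replicate 1, 3 or 4, or IL-4 MSC 3 wpi replicate 3 or 4 (0.41 to 0.48, adjusted p 0.0509 to 0.102). This call of Cd63 was also lost with the replicate block (0.46, adjusted p = 0.0525), with the striatum covariate (0.47, adjusted p = 0.0535) and with only the compared groups in the fit (0.496, adjusted p = 0.102).

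The same change measured from MSC mice was higher in 19 of the 34 genes and lower in 0, against 5.96% of all genes, with a median of 0.29, and 16 were higher without MSC 3 wpi replicate 5 and 23 without MSC 1 wpi replicate 3. The largest were again Atp6v0d2 (3.22 ± 0.79), Ctsc (1.71 ± 0.23), Ctss (1.43 ± 0.25) and Cd68 (1.15 ± 0.23), with adjusted p at most 0.00917. Ctsd did not pass either test, at -0.06 ± 0.16 from PBS (adjusted p = 0.906) and -0.06 ± 0.16 from MSCs (adjusted p = 0.886).

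Leukocyte markers at 3 wpi summed to 102 to 215 TPM with PBS, 120.1 to 255 with MSCs and 113 to 227 with IL-4 MSCs, and 0, 3 and 3 of 9 were higher than in Sham. From 1 to 3 wpi 9 of 9 of them and 11 of 13 infiltrating macrophage markers fell with IL-4 MSCs. Microglia markers summed to 386 to 430.1, 393 to 477 and 406 to 452 TPM, with 0, 1 and 5 of 12 higher than in Sham, and infiltrating macrophage markers to 18.7 to 22.5, 19.8 to 52.8 and 17.4 to 28.0 TPM, with 0, 0 and 1 of 13 higher. T cell markers were higher than in Sham in 0, 5 and 6 of 9 cases at 3 wpi and in 0, 1 and 5 of 9 at 1 wpi. With MSCs at 1 wpi that number was near the share of all genes, 11.0%. The sum of the T cell markers was 5.81 to 9.69 TPM in Sham, 11.2 to 14.1 with IL-4 MSCs at 1 wpi and 12.95 to 21.5 at 3 wpi.

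Atp6v0d2 and Ctsk are also known from osteoclasts, so a list of 8 genes of osteoclasts and fused macrophages was read beside them. With IL-4 MSCs at 1 wpi 4 of 8 were higher than in Sham (Acp5, Mmp9, Nfatc1 and Tnfrsf11a), 2 with PBS and 2 with MSCs, and at 3 wpi 0 in each treatment by edgeR. Acp5, the acid phosphatase of osteoclasts and macrophages, rose by 4.32 ± 0.39 and was the most abundant of the list (12.2 TPM), whereas the fusion genes Dcstamp (0.70 ± 0.43) and Ocstamp (-0.04 ± 0.14) and the calcitonin receptor gene Calcr (0.26 ± 0.75) did not pass the test. Of 15 genes of MSCs 2 were higher and 1 lower with PBS, 11 higher with MSCs and 13 higher with IL-4 MSCs at 1 wpi, with sums of 72.9 to 104 TPM in Sham, 95.4 to 128 with PBS, 149.7 to 324 with MSCs and 179 to 227 with IL-4 MSCs. With PBS both numbers were near the shares of all genes, 8.73% higher and 5.03% lower. Of these 15, 1 gene was not detected in Sham and 2 in PBS mice at 1 wpi. What these cells contributed to the 34 genes was not tested.

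Markers of resident brain cells stood as follows at 1 wpi with IL-4 MSCs against Sham, where 18.4% of all genes were higher and 18.5% lower. Of 7 astrocyte markers 5 were higher and 1 lower, led by Gfap (2.64 ± 0.19), with sums of 1376 to 1475 TPM in Sham and 2113 to 2514 TPM. Of 10 neuron markers 9 were lower, with sums of 5901 to 6213 TPM in Sham and 4987 to 5560.0 TPM. Of 7 oligodendrocyte markers 1 was higher and 1 lower, and of 6 endothelial markers 5 were higher. Cortex markers were lower in 3 of 7 cases, hippocampus markers in 1 of 9, and striatum markers did not pass the test in any of 13. The oligodendrocyte and hippocampus counts were near or under the shares of all genes. At 3 wpi 12 of 13 striatum markers were higher with IL-4 MSCs than with PBS and 11 than with MSCs, while 0 of the 34 lysosome genes were called in those 2 comparisons. The part of tissue makeup in the lysosome genes was not tested beyond the fit with the striatum covariate.

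Other genes of the lysosome were listed apart from the 34. For these lists, the shares of all genes higher and lower than in Sham at 1 wpi were 8.73% and 5.03% with PBS, 11.0% and 6.89% with MSCs, and 18.4% and 18.5% with IL-4 MSCs. Of 35 further hydrolases and activators 15 were higher and 1 lower with PBS at 1 wpi, 18 and 1 with MSCs, and 26 and 5 with IL-4 MSCs against Sham (median 0.39). In each treatment the share of the 35 that was lower was under that of all genes. The largest rises were in Acp5, in Ctse (4.21 ± 0.59), an aspartic cathepsin gene, and in Ctsw (1.54 ± 0.30), a cathepsin gene of cytotoxic lymphocytes. The largest falls were in Ids (-0.23 ± 0.04), Pld3 (-0.22 ± 0.06) and Epdr1 (-0.17 ± 0.04), and Pld3 was the most abundant of the list in each group. IL-4 MSC mice had 20 higher and 2 lower than PBS mice (11.2% and 6.16% of all genes) and 14 higher and 0 lower than MSC mice (7.66% and 1.03%). At 3 wpi 0, 0 and 5 of the 35 were higher than in Sham with PBS, MSCs and IL-4 MSCs.

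Of 33 further genes of the lysosomal membrane, transport and sorting, 32 were in the table and 30 were tested. With IL-4 MSCs at 1 wpi 15 were higher and 8 lower than in Sham, beside 5 and 3 with PBS and 8 and 1 with MSCs. The channel gene Mcoln2 (5.01 ± 0.46), the peptide and histidine transporter gene Slc15a3 (3.27 ± 0.23) and Litaf (0.74 ± 0.08) rose most. Lamp5 (-0.43 ± 0.14), which is also a cortex marker, Sort1 (-0.27 ± 0.05) and Laptm4b (-0.21 ± 0.06) fell most. IL-4 MSC mice had 10 higher and 4 lower than PBS mice and 8 higher and 1 lower than MSC mice, and at 3 wpi 0, 1 and 2 were higher than in Sham.

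The 21 further subunits of the proton pump differed from Atp6v0d2. With IL-4 MSCs at 1 wpi 4 were higher and 12 lower than in Sham (median -0.13), beside 18.4% and 18.5% of all genes. With PBS 2 were higher and 2 lower (8.73% and 5.03% of all genes), and with MSCs 2 and 4 (11.0% and 6.89%). The share of the 21 that was higher was near that of all genes in each treatment. Tcirg1 (1.22 ± 0.08), the a3 subunit known from osteoclasts, Atp6v0e (0.24 ± 0.06) and Atp6v0a2 (0.19 ± 0.04) rose most, and Atp6v0a1 (-0.22 ± 0.03), the a1 subunit known from neurons, Atp6v1g2 (-0.21 ± 0.07) and Atp6v1a (-0.20 ± 0.06) fell most. Their summed level was 5288 to 5812 TPM in Sham and 5025 to 5401 TPM with IL-4 MSCs, ranges that overlap, with Atp6v0c the most abundant in every group. Between IL-4 MSC and PBS mice 1 was higher and 2 lower, between IL-4 MSC and MSC mice 1 and 1, and at 3 wpi 0 were called against Sham by edgeR in each treatment.

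Of 12 regulators of lysosome genes 2 were higher with PBS, 3 with MSCs, and 5 higher and 2 lower with IL-4 MSCs against Sham at 1 wpi. The shares of all genes were 8.73%, 11.0%, and 18.4% higher and 18.5% lower, so the number of regulators that were lower was near the share of all genes. Tfec (5.76 ± 0.42), a transcription factor of macrophages, rose most, followed by its relative Tfeb (0.39 ± 0.07) and by Fnip2 (0.37 ± 0.05), and Mtor (-0.17 ± 0.03) and Rptor (-0.10 ± 0.03), which form the growth-sensing kinase complex at the lysosome, fell. IL-4 MSC mice had 3 higher and 2 lower than PBS mice and 3 higher and 0 lower than MSC mice. Of 18 genes of cathepsin inhibitors 17 were in the table and 11 were tested. With IL-4 MSCs 8 were higher and 0 lower than in Sham, with PBS 4 and 1, and with MSCs 4 and 0. Cst7 (4.84 ± 0.45), the cystatin F gene, Serpina3n (3.43 ± 0.28) and Ctla2b (1.92 ± 0.21) rose most, and Cst3, the most abundant inhibitor (1639 TPM in Sham), was not called (0.14 ± 0.09). IL-4 MSC mice had 7 higher than PBS mice and 4 higher than MSC mice, and at 3 wpi 0, 2 and 1 inhibitors were higher than in Sham.

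By position, the 34 genes lie scattered over the genome (build GRCm38), with 1 close pair among the cathepsins. Ctsk (chr3:95499256-95509362, plus strand) and Ctss (chr3:95526786-95556403, plus strand) are neighbours on chromosome 3. Ctss rose with PBS and MSCs at 1 wpi, and Ctsk did not pass the test in either.

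Promoters are shown because most of these genes, 29 of 34, rose against Sham with IL-4 MSCs at 1 wpi. The remaining 5 were not called, and whether the genes moved jointly was not tested. The stretches shown also differ in letters, Lamp1 and Ctsd from Cd68, Ctss and Ctsc. Lamp1 and Ctsd moved less or alike in all treatments, while Cd68, Ctss and Ctsc moved most among genes with a promoter sequence. Lamp1, Ctsd and Cd68 were fixed in the plan, and Ctss and Ctsc were chosen after their values were seen. A link between letters and size of change therefore cannot be read from the genes printed, and it was not tested. The sequences are from RefSeq (build GRCm38.p6), each 5′ to 3′ on the strand of the gene, with 250 bases before the start of the transcript and 20 from it. Capitals mark CACGTG, the E-box that factors of the Tfeb family are known to bind, with an adjoining T or A where the letters read TCACGTG on either strand, and GAGGAA or GAGGAAGT on either strand (TTCCTC and ACTTCCTC in reverse), the purine-rich letters known from sites of the myeloid factor encoded by Spi1. TCACGTG contains CACGTG and GAGGAAGT contains GAGGAA, so these counts overlap.
Lamp1, chr8:13158911-13159180, plus strand: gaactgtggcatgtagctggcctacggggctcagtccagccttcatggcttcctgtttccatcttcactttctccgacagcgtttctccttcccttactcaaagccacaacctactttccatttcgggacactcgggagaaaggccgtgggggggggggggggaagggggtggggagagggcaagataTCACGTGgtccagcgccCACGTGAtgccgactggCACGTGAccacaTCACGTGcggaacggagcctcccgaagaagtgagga
Ctsd, chr7:142387808-142388077, minus strand: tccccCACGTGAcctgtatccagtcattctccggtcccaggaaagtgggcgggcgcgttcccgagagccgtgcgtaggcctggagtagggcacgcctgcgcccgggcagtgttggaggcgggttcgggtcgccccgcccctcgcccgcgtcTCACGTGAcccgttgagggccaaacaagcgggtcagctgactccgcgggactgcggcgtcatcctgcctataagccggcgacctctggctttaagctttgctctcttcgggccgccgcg
Cd68, chr11:69666151-69666420, minus strand: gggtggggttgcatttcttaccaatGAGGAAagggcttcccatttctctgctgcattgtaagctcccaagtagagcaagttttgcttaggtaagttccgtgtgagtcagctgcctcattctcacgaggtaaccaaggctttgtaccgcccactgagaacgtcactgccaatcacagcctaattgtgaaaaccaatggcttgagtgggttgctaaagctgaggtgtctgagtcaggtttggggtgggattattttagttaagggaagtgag
Ctss, chr3:95526536-95526805, plus strand: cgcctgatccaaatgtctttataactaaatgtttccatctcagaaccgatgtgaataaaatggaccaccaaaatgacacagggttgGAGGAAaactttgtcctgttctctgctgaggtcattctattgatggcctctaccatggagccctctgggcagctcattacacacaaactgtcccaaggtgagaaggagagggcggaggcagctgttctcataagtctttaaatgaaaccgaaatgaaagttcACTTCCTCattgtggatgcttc
Ctsc, chr7:88277835-88278104, plus strand: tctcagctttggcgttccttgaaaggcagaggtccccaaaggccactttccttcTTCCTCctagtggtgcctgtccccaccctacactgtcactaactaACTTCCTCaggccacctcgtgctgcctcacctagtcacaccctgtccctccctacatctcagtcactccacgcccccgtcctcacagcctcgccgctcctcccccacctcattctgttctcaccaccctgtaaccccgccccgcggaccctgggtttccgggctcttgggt

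In the stretches printed, Lamp1 had 4 and Ctsd 2 matches to CACGTG, and Cd68, Ctss and Ctsc had 1, 2 and 2 matches to GAGGAA. Of the 34 genes 29 had promoters in the RefSeq table, 32 in all, each of 300 bases (250 before the start and 50 from it); those of Ctsb, Ctsh, Asah1, Npc1 and Atp6v0d2 were not analysed here. CACGTG was found in 9 of the 32 (28.1%), in Ctsf, Ctsl, Ctsa, Ctsd, Lgmn, Glb1, Gla, Gaa and Lamp1, and in 7.15% of all 32851 promoters. Among the other lysosome genes it was in 11 of 31 promoters of the membrane, transport and sorting list (35.5%), 4 of 21 of the proton pump list (19%) and 4 of 33 of the hydrolase list (12.1%). The longer TCACGTG was in 7 (21.9%, against 3.77%) and TCACGTGA, which reads the same on both strands, in 3 (9.38%, against 0.974% of all and 29% of the membrane, transport and sorting list). GAGGAA was found in 14 (43.8%, against 28.3%), in Ctsc, Ctsk, Ctss, Gusb, Glb1, Gla, Man2b1, Lipa, Psap, Lamp2, Cd63, Cd68, Laptm5 and Grn, and GAGGAAGT in 4 (12.5%, against 3.20%). In the hydrolase, membrane and proton pump lists GAGGAA was in 39.4%, 12.9% and 19% of promoters.

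With IL-4 MSCs against Sham at 1 wpi, 7 of the 9 genes with CACGTG were higher and 3 rose by at least 1, with a median log2 difference of 0.35, beside 17 and 10 of the 20 genes without it and a median of 0.87. Of the 14 genes with GAGGAA 14 were higher and 8 rose by at least 1 (median 1.18), beside 10 and 5 of the 15 without it (median 0.36). Single genes departed from these medians. Ctsz had neither CACGTG nor GAGGAA and rose by 1.96, and Ctsl and Lgmn had CACGTG without GAGGAA and rose by 1.54 and 1.36. These are descriptions of letters in a window, with no test, and a match is not a site at which a factor was measured.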

How the data were processed

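The authors trimmed reads with cutadapt 2.4 and used kallisto 0.46 with the GENCODE vM23 transcripts to obtain the deposited estimated count of each gene. The deposited TPM values come from the same kallisto run of the authors and were used as they stand. Estimated counts were rounded and fitted in R 4.3.3 with edgeR 4.0.16 (quasi-likelihood, TMM, filterByExpr, adjusted over 17131 genes); DESeq2 1.42.0 was an alternative, and limma 3.58.1 was loaded by edgeR. The authors' p, q and fold columns hold their own 21 comparisons and were not used; 0 per-sample columns were left out. Genes were matched by name. The 34 genes and the marker lists were chosen with earlier results of these data known. Over 66 pairs of replicates the chi-square per gene was 3.22 to 50.5 and r was 0.981 to 0.994. Mice with the same replicate number were no more alike (r -0.463 to 0.4 over 99 pairs) than others (-0.42 to 0.439 over 396), and 5 of 34 mice were closest to their own number, so pairing was tried only as an alternative. sleuth was not run. The most abundant genes of the microglia and infiltrating macrophage lists are not reported here.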

Additional observations from a re-analysis of the deposited data

Results flagged for a closer look

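Among the groups of the 16 genes given in every mouse, 112 were looked at for a mouse far from the rest, and 18 (16.1%) had one. For a single look chance alone gives about 1 in 20. The same mice recur across the 16 genes, so the looks were not independent, and whether 18 exceeds chance was not tested. PBS at 3 wpi replicate 3 was the highest in Atp6v0d2 (1.29 CPM, next 0.2049). Sham replicate 5 was the highest in Cd68 (7.597 CPM, next 4.678), in Ctsc (12.91 CPM, next 9.086), in Ctss (70.3 CPM, next 36.15), in Ctsh (11.87 CPM, next 7.746), in Grn (56.47 CPM, next 44.39), in Laptm5 (38.53 CPM, next 27.22) and in Ctsd (290 CPM, next 240.6). MSC at 3 wpi replicate 5 was the highest in Ctsc (25.26 CPM, next 12.37), in Ctss (119.5 CPM, next 69.27), in Ctsh (18.3 CPM, next 10.82) and in Gusb (17.52 CPM, next 14.7). MSC at 1 wpi replicate 3 was the highest in Ctsh (23.31 CPM, next 16.94). IL-4 MSC at 1 wpi replicate 5 was the lowest in Ctsl (161.5 CPM, next 219.7). PBS at 1 wpi replicate 2 was the highest in Lgmn (187.2 CPM, next 147) and in Gusb (35.83 CPM, next 22.93). IL-4 MSC at 3 wpi replicate 4 was the lowest in Gusb (12.9 CPM, next 15.42). PBS at 3 wpi replicate 2 was the lowest in Lamp1 (245.9 CPM, next 274.9). Measured from PBS, the log2 difference of IL-4 MSC mice at 1 wpi exceeded that at 3 wpi by 3.45 in Atp6v0d2, 1.11 in Cd68, 1.29 in Ctsc, 1.06 in Ctss, 0.57 in Ctsz, 0.75 in Grn, 0.94 in Ctsl, 0.74 in Lgmn, 0.47 in Cd63, 0.93 in Ctsk and 0.57 in Npc2. Measured from MSCs, the log2 difference of IL-4 MSC mice at 1 wpi exceeded that at 3 wpi by 3.22 in Atp6v0d2, 1.15 in Cd68, 1.71 in Ctsc, 1.43 in Ctss, 0.62 in Ctsz, 0.95 in Ctsh, 0.73 in Grn, 1.00 in Ctsl, 0.56 in Laptm5, 0.84 in Lgmn, 0.71 in Ctsk and 0.53 in Npc2.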

How the results depend on the processing

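Numbers below are genes called of the 34, by edgeR unless said. Leaving out each mouse in turn gave 20 to 23 (PBS), 22 to 25 (MSC) and 28 to 29 (IL-4 MSC) against Sham at 1 wpi, then 0 to 0, 0 to 8 and 3 to 11 at 3 wpi. The 8 for MSCs and 11 for IL-4 MSCs came without Sham replicate 5. The lowest values, 0 (MSC) and 3 (IL-4 MSC), came without Sham replicate 1, among others. IL-4 MSCs at 1 wpi gave 24 to 27 against PBS and 24 to 26 against MSCs; the other comparisons between treatments of 1 week stayed at 0. From 1 to 3 wpi the numbers were 13 to 20 (PBS), 13 to 19 (MSCs) and 27 to 30 (IL-4 MSCs). The change with week was 10 (without PBS 3 wpi replicate 3) to 21 (without PBS 1 wpi replicate 2) from PBS and 16 to 24 from MSCs. Requiring a log2 difference of at least 1 left 5, 7 and 15 against Sham at 1 wpi, 0 (MSC) and 1 (IL-4 MSC) at 3 wpi, 6 and 4 for IL-4 MSCs against PBS and MSCs, 1, 1 and 11 from 1 to 3 wpi, and 4 and 4 for the changes. Against Sham at 3 wpi, with MSC mice first, the numbers were 1 and 1 with only the compared groups in the fit, 0 and 1 with Sham mice of the same week, and 4 and 5 with the replicate block; IL-4 MSCs gave 2 with the striatum covariate and 10 with DESeq2. Library totals as the only scaling was chosen after the data were seen. Single calls were followed in this way only for the 16 genes given in every mouse. Apart from Ctsd and Lamp1, these were picked for a log2 difference of at least 1 from Sham with IL-4 MSCs at 1 wpi. Of their 146 calls, 59 kept and 87 lost theirs with the log2 requirement, 130 held in every fit without 1 mouse, and 0 changed sign. These numbers do not describe the calls of the other genes of the 34, such as Lamp2. Including PBS 3 wpi replicate 5 was not run; that library was not analysed here.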
